A study of Arabidopsis thaliana with 28 samples.

Results

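The ATHILA families are Gypsy retroelements of Arabidopsis thaliana, and 4 of them, ATHILA6B, ATHILA6A, ATHILA3 and ATHILA2, were described here. They are all the entries whose name starts with ATHILA among the 83 named transposable element families in the authors' deposited comparison of caa39 seedlings with wild-type seedlings. Gypsy elements account for 11 of the 83 families. The table lists only families that passed the authors' test, so an ATHILA family that did not pass would not be in it, and other ATHILA families were not analysed here.

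Athila elements are long LTR retrotransposons, which move by copying their RNA into DNA and carry long terminal repeats at both ends. In Arabidopsis they are concentrated in and around the centromeres, in heterochromatin that is held silent by DNA methylation and by methylation of histone H3 at lysine 9, and most copies are no longer able to move. Transcripts of Athila elements are best known from mutants and cell types in which this silencing is relaxed, and ATHILA6A transcripts are then a source of small interfering RNA. Topoisomerase VI, which untangles DNA by passing a double strand through a cut in another, is known in plants for its part in the repeated genome doubling of growing cells.

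RNA came from the aerial parts of seedlings aged 6 days, with 3 libraries of caa39, a mutant line of topoisomerase VI, and 3 libraries of the wild type Col-0. Seeds of both genotypes were stratified for 3 days and the seedlings grown with 16 hours of light a day at 21 °C on sucrose medium, without further treatment. The series design calls the RNA libraries biological replicates. Only 1 mutant line was sequenced, and the labels do not name its allele or how it was made. Libraries were made with a kit for stranded mRNA, so RNA without a poly(A) tail was not measured.

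Each value is a family total over copies dispersed in the genome. No copy, coordinate or sequence is attached to it, and none is given here. The deposited values are genotype means of normalised reads, meaning read counts divided by a size factor for each library. The whole reads of the 3 libraries behind each mean were solved from its digits, as the processing account describes. Libraries are lettered a, b and c within a genotype by size factor, and the letters are not replicate numbers. The caa39 libraries held 554, 497 and 325 ATHILA reads, against 54, 80 and 55 in the wild-type libraries. These were drawn from 20791 to 31566 listed reads per caa39 library and 22924 to 26678 per wild-type library. Their sequencing depth is unknown.

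All 4 ATHILA families were higher in caa39, and the authors' deposited table puts their folds between 4.52 and 26.3. The background matters for this count. Every listed family had passed (percent called 100), and 40 of the 83, or 48.2%, were higher in caa39. Across the 23918 tests that the adjusted p-values imply, at least 35.7% passed in either direction. From the log2 values of the authors' deposited table the 4 ATHILA families had a median of 2.41, against −0.35 for all 83 families and 2.20 for the 40 that were higher. Rises of at least 2-fold were listed for 30 of the 83 families (36.1%), of at least 4-fold for 21 (25.3%), and with an adjusted p below 0.01 for 28 (33.7%). The 4 ATHILA families were in each of these counts. In aerial tissue sequenced in bulk, more cells that express an element and more RNA per cell cannot be told apart.

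**Figure D1:**
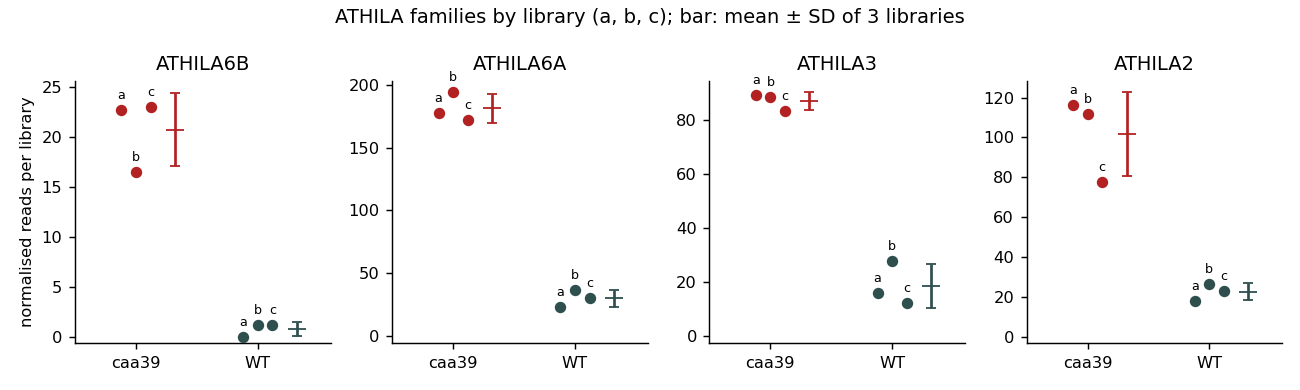
Normalised reads of each ATHILA family (linear axis, 1 panel per family) in caa39 libraries on the left and wild-type libraries on the right, lettered a to c, with the mean ± SD of 3 libraries as a bar beside the points. In all 4 panels the lowest caa39 library lies above the highest wild-type library, by 2.93 times in ATHILA2 and 13.6 times in ATHILA6B.

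ATHILA6A held the most reads of the 4 families. It had 177, 194 and 172 normalised reads in caa39 libraries a, b and c, against 23.3, 36.9 and 30.4 in wild-type libraries a, b and c. The lowest caa39 library was 4.66 times the highest wild-type library. The means were 181 ± 11.8 in caa39 and 30.2 ± 6.77 in the wild type (SD, n = 3 each), on 634 and 79 reads. Counting alone would give an SD of 12.7 in caa39 and 5.85 in the wild type. The caa39 size factors had been chosen among 6 sets for the smallest spread between libraries. A small caa39 SD is thus partly set by that choice in ATHILA6A, ATHILA6B and ATHILA3. In ATHILA2 the caa39 SD was larger in the chosen set than in the set with the next smallest spread. With the next set ATHILA6A had 201, 148 and 194 normalised reads in caa39, with an SD of 29.1 and all libraries still above the wild type. The authors' deposited table gives ATHILA6A a fold of 6.00 and an adjusted p of 1.65e-27. By p-value it ranked number 7 of the 83 families, and number 604 of the 23918 tests implied. In limma, a linear model run across all 83 families on the solved libraries, its log2 fold change was 2.59 ± 0.18 (SE), with an adjusted p of 0.000159.

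ATHILA6B shares the number 6 with ATHILA6A in the family naming, and was close to silent in the wild type. It had 31, 20 and 21 reads in caa39 libraries a, b and c, and 0, 1 and 1 reads in wild-type libraries a, b and c. As normalised reads these were 22.7, 16.5 and 23.0 in caa39, against 0, 1.15 and 1.22 in the wild type. The 0 of wild-type library a allows a level of up to 3.18 normalised reads. All caa39 libraries were far above that limit, so the direction does not rest on the empty library. The size of the change does rest on few reads. In the authors' deposited table its fold was 26.3, number 2 of the 83 deposited folds by size, and its adjusted p 1.32e-06. Families with 0 reads in every wild-type library have no measured fold and may lie above it. The ratio of pooled reads, 72 in caa39 and 2 in the wild type, was 27.2 with an exact 95% counting interval of 7.26 to 229. Intervals and limits of this kind cover counting error only. On the limma scale, where 0.5 is added to every value, the log2 fold change was 4.23 ± 0.52 (SE, adjusted p = 0.000829 in limma). Whether some reads of ATHILA6A copies were assigned to ATHILA6B was not tested. The summed count of the pair was 202 ± 8.23 normalised reads in caa39 and 31.0 ± 7.37 in the wild type (SD, n = 3 each).

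ATHILA3 had 89.3, 88.5 and 83.2 normalised reads in caa39 libraries a, b and c, against 15.9, 27.6 and 12.2 in wild-type libraries a, b and c. All caa39 libraries were above all wild-type libraries. The means were 87.0 ± 3.35 in caa39 and 18.6 ± 8.08 in the wild type (SD, n = 3 each), where counting alone would give 8.79 and 4.61. The caa39 SD is below the counting SD in the chosen set, and in the next set the caa39 values were 99.2, 73.3 and 88.5. The wild-type spread came from library b, which held 24 of the 49 wild-type reads. A fold of 4.69 and an adjusted p of 5.56e-07 were listed for ATHILA3 in the authors' deposited table. Without wild-type library b the ratio of means was 6.20, and without wild-type library c it was 4.00. In limma its log2 fold change was 2.28 ± 0.30 (SE, adjusted p = 0.000971 in limma).

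ATHILA2 had 116, 112 and 77.7 normalised reads in caa39 libraries a, b and c, against 18.0, 26.5 and 23.1 in wild-type libraries a, b and c. In this set of caa39 libraries, library c was below the other two, and with the next set the SD in caa39 was 14.6. The means were 102 ± 21.1 in caa39 and 22.5 ± 4.27 in the wild type (SD, n = 3 each). Counting alone would give 9.62 and 5.06. The authors' deposited table holds ATHILA2 at 4.52-fold (adjusted p = 2.35e-13). In limma its log2 fold change was 2.15 ± 0.22 (SE, adjusted p = 0.000434 in limma). Although its fold was the smallest of the 4, its p-value ranked number 13 of the 83 families, ahead of ATHILA3 at 30 and ATHILA6B at 34.

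Among the listed families the ATHILA families stood higher by read number in caa39 than in the wild type. By mean normalised reads ATHILA6A, ATHILA2, ATHILA3 and ATHILA6B ranked 25, 36, 42 and 64 of the 83 families in caa39, against 58, 59, 62 and 76 in the wild type. The order of the 4 by reads was the same in each genotype. In caa39 ATHILA6A lay above the other families in every library, while the ranges of ATHILA2 and ATHILA3 overlapped. ATHILA6A also held the most reads within each wild-type library. Across wild-type libraries the ranges of ATHILA6A, ATHILA2 and ATHILA3 overlapped, and ATHILA6B lay below them. The lengths and copy numbers of the families are unknown here, and this is an order of reads and not of expression per copy or per base. ATHILA6A, ATHILA3 and ATHILA2 were each highest in library b among the wild-type libraries. The total over all 83 families was also highest there, at 21246 normalised reads against 20135 in library a and 19814 in library c. That higher total came from a single hAT family, ATHAT10. Its counts, normalised in the same way, were 1462 (a), 2953 (b) and 1442 (c). The excess of ATHAT10 in library b was larger than that of the total, so the total shows no general rise of families there.

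**Figure D2:**
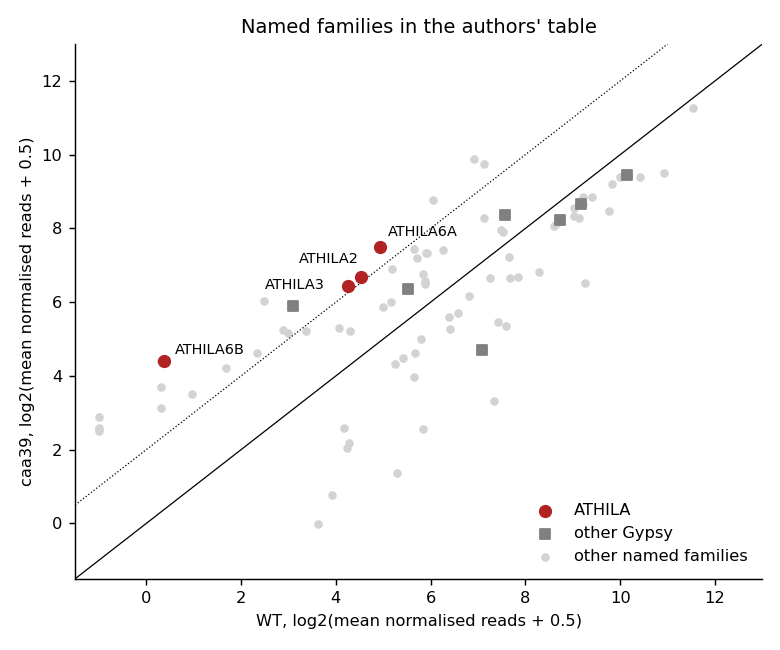
Mean normalised reads in caa39 (vertical) against the wild type (horizontal) for the 83 named families, both as log2(mean + 0.5), with ATHILA as red circles, the other Gypsy families as grey squares and all others as pale dots. The solid line marks equal levels and the dotted line a 4-fold rise, and the 4 ATHILA families lie above the dotted line.

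The next question was whether the 4 families rose by the same factor. The ratio of pooled ratios compares the change of a pair of families, and its exact 95% counting interval was taken for all 6 pairs. For ATHILA6B against ATHILA6A, ATHILA3 and ATHILA2 it was 4.49 (1.16 to 38.4), 5.78 (1.45 to 50.1) and 5.82 (1.48 to 50.2). These 3 intervals lie above 1, and all of them rest on the 2 wild-type reads of ATHILA6B. For ATHILA6A it was 1.29 (0.860 to 1.92) against ATHILA3 and 1.30 (0.887 to 1.89) against ATHILA2. ATHILA3 and ATHILA2 had the closest folds, with 1.01 (0.656 to 1.55). Among ATHILA6A, ATHILA3 and ATHILA2 all 3 intervals include 1, and differences of up to 1.92 times lie inside them. The spread between libraries is not part of these intervals. Taken within each library, the log2 ratio of ATHILA6A to ATHILA2 was 0.85 ± 0.27 in caa39 and 0.41 ± 0.055 in the wild type (SD, n = 3 each), with every caa39 library above every wild-type library. That difference had p = 0.1 in a two-sided exact permutation test, the smallest that 3 against 3 allows. After Benjamini-Hochberg adjustment over the 6 pairs, the p of that permutation test was 0.15. The other pairs within these 3 families overlapped between genotypes in the same ratio.

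Together the 4 families had 406, 411 and 356 normalised reads in caa39 libraries a, b and c, against 57.2, 92.2 and 66.9 in wild-type libraries a, b and c. The means were 391 ± 30.6 in caa39 and 72.1 ± 18.0 in the wild type (SD, n = 3 each), a ratio of 5.42. The gain of 319 normalised reads was made up of 47.4% from ATHILA6A, 24.9% from ATHILA2, 21.5% from ATHILA3 and 6.26% from ATHILA6B. It was 8.39% of the 3799 normalised reads gained by the 40 families that were higher in caa39. Over all 83 families the summed count was lower in caa39, at 16433 ± 392 normalised reads against 20398 ± 751 in the wild type (SD, n = 3 each). The ATHILA share of that sum was 2.38% ± 0.131 in caa39 and 0.352% ± 0.0758 in the wild type (SD, n = 3 each).

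Within the ATHILA sum, the shares of ATHILA6A and ATHILA3 overlapped between genotypes and those of ATHILA2 and ATHILA6B did not. ATHILA6A made up 46.4% ± 2.43 of it in caa39 and 42.1% ± 2.96 in the wild type (SD, n = 3 each). ATHILA3 made up 22.3% ± 0.961 in caa39 and 25.3% ± 6.28 in the wild type (SD, n = 3 each). ATHILA2 made up 25.9% ± 3.60 in caa39 and 31.6% ± 2.90 in the wild type (SD, n = 3 each). Its share was 28.7%, 27.2% and 21.8% in caa39 libraries a, b and c, against 31.5%, 28.8% and 34.5% in wild-type libraries a, b and c. The highest caa39 library thus lay only just below the lowest wild-type library. ATHILA6B made up 5.36% ± 1.24 in caa39 and 1.02% ± 0.930 in the wild type, with all caa39 libraries above all wild-type libraries (SD, n = 3 each). In a two-sided exact permutation test over libraries, the ATHILA6B and ATHILA2 shares each had p = 0.1, the smallest that 3 against 3 allows, so neither can pass 0.05.

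**Figure D3:**
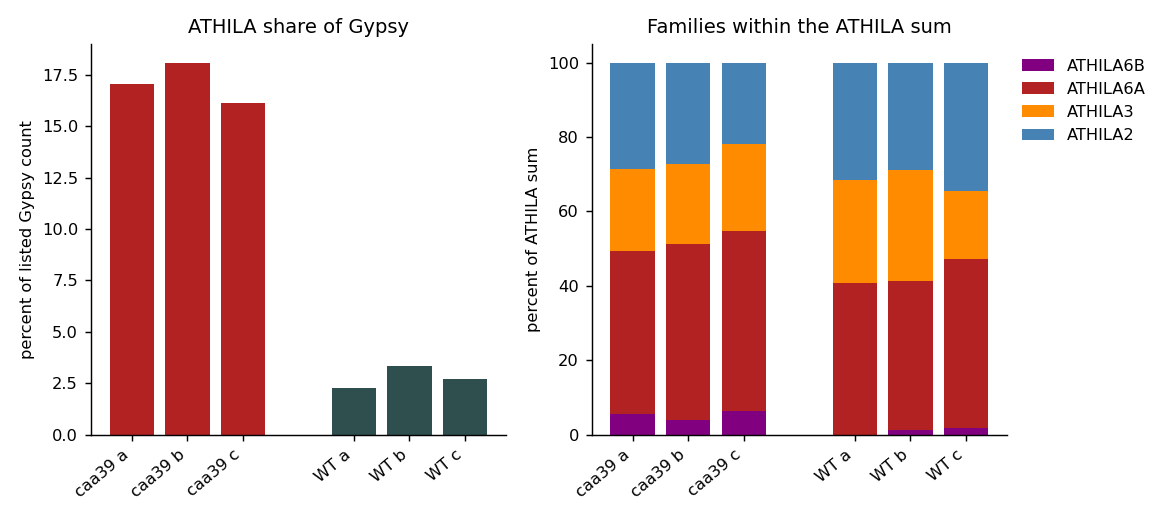
The left panel gives the ATHILA share of the normalised reads of the 11 listed Gypsy families, in percent, for caa39 libraries a to c and then wild-type libraries a to c. The right panel divides the ATHILA sum of each library among the 4 families. The ATHILA share of the Gypsy reads is 16.1% to 18.1% in caa39 and 2.29% to 3.33% in the wild type. ATHILA6A stays the largest piece of the ATHILA sum in all 6 libraries.

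Set against the other listed Gypsy families, the ATHILA families moved in a single direction. Of the 7 others, which comprise ATGP and ATLANTYS families, 3 were higher and 4 were lower in caa39. Their folds in the authors' deposited table were 7.32 for ATGP10, 1.82 for ATGP2 and 1.72 for ATLANTYS3. The remaining folds in the authors' deposited table were 0.704 for ATGP9B, 0.698 for ATLANTYS1, 0.622 for ATLANTYS2 and 0.188 for ATGP8. The median of the log2 values in the authors' deposited table was 2.41 for ATHILA and −0.51 for the 7 others. ATGP10 was the only other Gypsy family within the range of ATHILA folds, with 58.9 ± 10.3 normalised reads in caa39 and 8.04 ± 2.65 in the wild type (SD, n = 3 each). ATGP8, which held more reads than any ATHILA family in the wild type, went the other way, with 25.6 ± 10.8 normalised reads in caa39 and 136 ± 23.9 in the wild type (SD, n = 3 each).

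The ATHILA share of the listed Gypsy count was 17.0%, 18.1% and 16.1% in caa39 libraries a, b and c, against 2.29%, 3.33% and 2.72% in wild-type libraries a, b and c. The groups did not overlap, and means were 17.1% ± 0.975 in caa39 and 2.78% ± 0.524 in the wild type (SD, n = 3 each). A share within a library does not depend on its size factor. The 7 other Gypsy families together had 1895 ± 71.1 normalised reads in caa39 and 2506 ± 150.2 in the wild type (SD, n = 3 each). The largest part of the Gypsy count was ATLANTYS2. Without it in the denominator, the difference in the ATHILA share was 19.7 percentage points, against 14.3 with it.

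**Figure D4:**
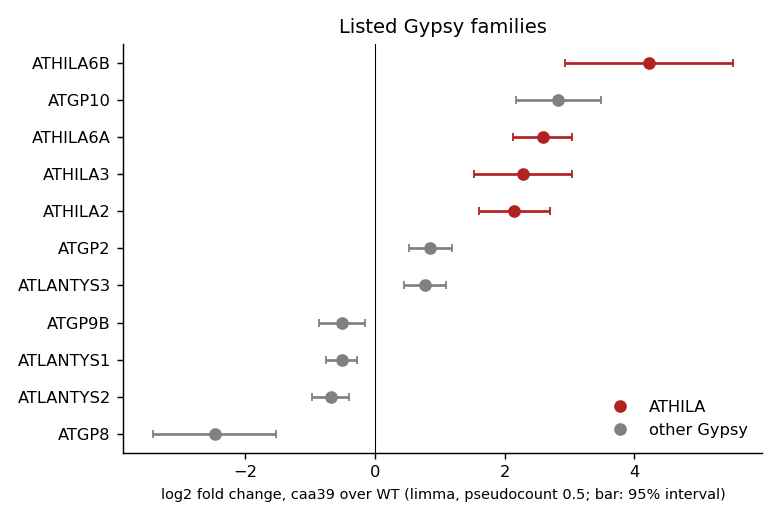
Log2 fold change of caa39 over the wild type for the 11 listed Gypsy families on the limma scale (pseudocount 0.5, horizontal axis), with 95% intervals from limma as bars, ATHILA in red and other families in grey. The ATHILA estimates run from 2.15 to 4.23, ATGP10 at 2.83 lies among them, and 4 families lie below 0.

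Likeness in level was measured as the distance between log2(mean + 0.5) values over the 2 genotypes, with only 2 points per family. ATHILA2 and ATHILA3 were closer to each other, at a distance of 0.355, than to any family outside ATHILA. ATHILA6A and ATHILA6B were each closer to a family outside ATHILA. Their nearest ATHILA families were ATHILA2 for ATHILA6A (distance 0.924) and ATHILA3 for ATHILA6B (distance 4.39). The 2 nearest families outside ATHILA were then taken for each ATHILA family, which gave 6 families, 5 of them DNA transposons and 1 a retroelement, ATCOPIA78. Outside ATHILA, ATHILA6B was closest to ATDNA12T3A, a DNA transposon family, which had 20.5 normalised reads in caa39 and 0.737 in the wild type (distance 0.0614). ATENSPM7, an En-Spm DNA transposon family, came next for ATHILA6B at a distance of 0.720. Outside ATHILA, the closest to ATHILA6A were the hAT family ATHATN3 (distance 0.646) and the Helitron family ATREP15 (distance 0.711). ATHATN3, with 119.8 normalised reads in caa39 and 36.1 in the wild type, was also the closest to ATHILA2 outside ATHILA (distance 0.706), followed by ATCOPIA78 (distance 0.924). For ATHILA3 the closest outside ATHILA were the MuDR family ATDNAI27T9C (distance 0.945) and the Copia family ATCOPIA78 (distance 1.01), whose folds of 1.84 and 1.81 in the authors' deposited table were well under that of ATHILA3.

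By fold alone ATHILA6B stood between ATDNA12T3A at 27.8 and ATENSPM7 at 16.8 in the authors' deposited table. ATHILA6A followed ATENSPM11, an En-Spm family that rose 6.13-fold in the authors' deposited table. The family after ATHILA6A, HELITRONY2, had no wild-type reads, so its deposited fold is not a measured one. ATHILA3 and ATHILA2 were adjacent to each other, between ATENSPM6 at 4.74 and RathE2_cons at 3.74 in the authors' deposited table.

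Leaving out any of the 6 libraries kept all 4 families higher in caa39 and past an adjusted p of 0.05 in limma, with adjusted p-values between 0.000246 and 0.0055. The largest shift was in ATHILA6B, whose ratio of means was 17.5 without wild-type library a, the library with 0 reads, and 36.0 without wild-type library c. For ATHILA6A the ratio ran from 5.39 to 6.74, for ATHILA3 from 4.00 to 6.20 and for ATHILA2 from 4.11 to 5.06. Limma called 39 of the 83 families (47%) higher in caa39 with all libraries. Libraries of the genotypes did not overlap, with caa39 higher, in 40 of the 83 families (48.2%), and the 4 ATHILA families were among them. The scale also bears on the size. When each library was scaled to its listed reads, which were fewer per size factor in caa39, ratios of means were 32.6 for ATHILA6B, 7.44 for ATHILA6A, 5.84 for ATHILA3 and 5.60 for ATHILA2.

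**Figure D5:**
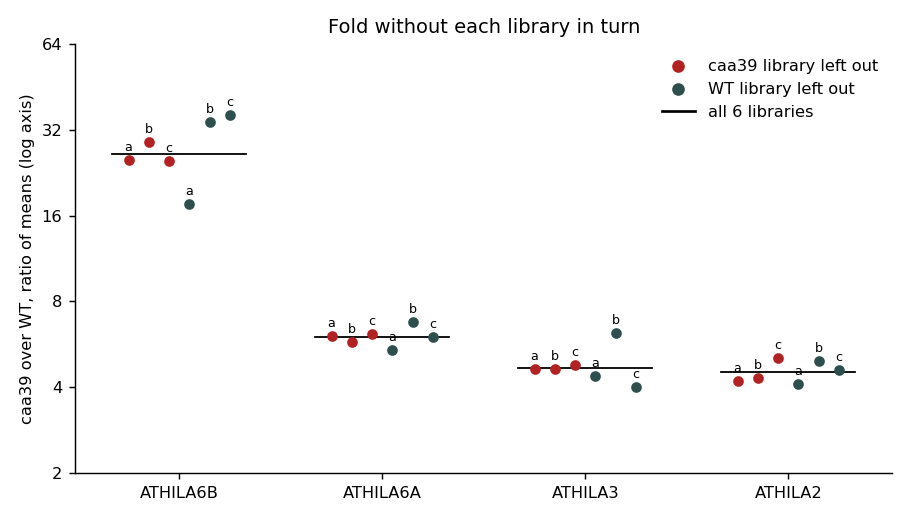
Ratio of mean normalised reads, caa39 over the wild type (log axis), for each ATHILA family with each library left out in turn, caa39 libraries in red and wild-type libraries in dark grey, with the value from all 6 libraries as a line. ATHILA6B ranges from 17.5 to 36.0, and the other 3 families stay between 4.00 and 6.74.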

How the data were processed

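Stranded mRNA of aerial parts was sequenced, per the labels' protocols. The submitters' processing notes list FastQC 0.10.1, Bowtie2 and edgeR 1.12.0 with the TAIR10 build. They do not say which program normalised the reads or gave p-values, or how reads matching several copies were assigned. A family sums near-identical copies, and related families may share reads. Chromatin and bisulfite libraries of the series were not analysed here.

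The deposited signal is the authors' genotype mean of normalised reads, per the file headers. The deposited ratio (fold) divides the caa39 mean by the wild-type mean. Where all wild-type reads were 0, a wild-type mean of 1 was deposited, so that fold is not a measured ratio. Such means were taken as 0 here, and the deposited folds were left as they stand. Another deposited column holds the log2 of that fold. The authors' deposited p-values are raw and adjusted, up to an adjusted 0.0499. Dividing adjusted by raw p gave whole ranks (relative tolerance 1e-08) in 74 of 84 entries for 23918 tests, against 37 for the next best number. The unassigned entry, 28.3% of listed reads, counts only in totals of listed reads.

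Whole reads per library were solved from the means by lattice reduction (sympy 1.14.0; relative tolerance 1e-14, absolute 2e-13). All 84 caa39 and 78 distinct wild-type means had 1 solution, and 0 had any after a small random shift. For caa39, 6 sets of size factors solved the means. The set whose libraries differed least was used. Its median coefficient of variation in families with a mean of at least 100 was 8.00%, against 16.1% for the next set, and the 6 size factors had a geometric mean of 1.00, against 1.35. Size factors were 1.37 (a), 1.21 (b) and 0.914 (c) in caa39, and 0.943 (a), 0.868 (b) and 0.823 (c) in the wild type. A read was worth 0.732 to 1.22 normalised reads.

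Limma 3.58.1 (R 4.3.3) was run on log2(normalised reads + 0.5), with Benjamini-Hochberg adjustment over 83 families. They had been listed for passing a test on these libraries, so limma is not independent evidence. Solver and limma were tested on simulated data. The spread between simulated libraries was set in advance, so this does not check the choice among caa39 sets. Intervals and tests used Python 3.11.15, numpy 2.4.6, scipy 1.17.1 and pandas 2.3.3, and figures matplotlib 3.10.9. A count of 0 was given a limit of 3 reads per library. Named families were ATHILA, all other listed Gypsy families, the neighbours of each ATHILA family by fold and the 2 nearest to each in level. ATHAT10 was named in addition, for its part in the total of wild-type library b. ATHILA families and lists were chosen with earlier results of these data known.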

Additional observations from a re-analysis of the deposited data

How the results depend on the processing

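In the 52 limma alternatives for the 4 ATHILA folds, all adjusted p-values stayed below 0.05 with caa39 higher, and the 32 fold values without a test kept their direction. The 53 alternatives for the ATHILA sum, the ATHILA share of the Gypsy count and the family shares also kept their direction. Their exact p-values cannot go below 0.1, or 0.2 with a library left out, so none of them could cross 0.05 and they say nothing of a threshold. The number of ATHILA families past the threshold was 4 in all 15 alternatives. These were an adjusted p below 0.01, a minimum fold of 2, and limma with pseudocounts of 0.1 to 5, a minimum mean of 10, scaling to listed reads, another set of caa39 size factors or a library left out. Since no library of a genotype overlaps the other in these families, leaving out a library could not turn a direction. The limma log2 fold change of ATHILA6B depended on the pseudocount, from 5.23 at 0.1 to 2.15 at 5. It was between 2.42 and 2.89 for ATHILA6A, 2.02 and 2.58 for ATHILA3, and 1.95 and 2.45 for ATHILA2 over the settings that kept all libraries.

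With a library left out, the difference in the ATHILA sum was between 308.5 and 336 normalised reads. That in the ATHILA share of the Gypsy count was between 13.8 and 14.8 percentage points. The differences in family shares were between 3.79 and 5.01 points for ATHILA6B, 3.33 and 6.05 for ATHILA6A, −6.58 and −0.67 for ATHILA3, and −7.11 and −3.66 for ATHILA2. Without ATHILA6A in the sum and the denominator the ATHILA share of the Gypsy count differed by 8.32 points. Leaving out ATHILA6A there, the other set of caa39 size factors and the minimum mean for single folds were chosen after seeing the data. No paired analysis was possible because replicate numbers could not be tied to the libraries solved from genotype means.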
